A study of Mus musculus with 2 samples.

Results

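The genes Hras, Nras, Braf, Map2k1, Map2k2, Sos1, Shoc2 and Ptpn11 form the core of the Ras-MAPK pathway that is altered in the human RASopathies, and they were taken by symbol from the deposited gene lists, where all 8 were found among 38926 listed genes. Messenger RNA of the pleuroperitoneal folds was sequenced in 2 libraries, replicates 2 and 1, which form the 1 group of the series: wild type mouse embryos, day 12.5 of gestation, on a mixed background given as 129s/SvlmJ-C57/BL6J. Each library pooled 2 dissected pairs of folds, the paired embryonic structures that supply connective tissue to the diaphragm, and the stated purpose of the series was to rank candidate genes from human studies of congenital diaphragmatic hernia. There was no other genotype, stage or tissue, so every level below is a description of this tissue, and the only contrast available is one library against the other. Nothing in the labels says that the pairs came from separate litters, so p-values measure only the difference between these libraries.

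In this pathway a stimulated receptor tyrosine kinase binds adaptor proteins and the phosphatase Shp2, encoded by Ptpn11, which promote activation of Ras. The exchange factor encoded by Sos1 loads the small GTPases encoded by Hras and Nras with GTP. GTP-bound Ras then recruits Raf kinases such as that of Braf, with the scaffold of Shoc2 helping to remove an inhibitory phosphate from Raf, and Raf activates the Mek kinases of Map2k1 and Map2k2, which phosphorylate Erk. In humans, germline variants that raise signalling through these proteins cause Noonan syndrome (PTPN11, SOS1, NRAS and others), Noonan-like syndrome with loose anagen hair (SHOC2), Costello syndrome (HRAS) and cardiofaciocutaneous syndrome (BRAF, MAP2K1, MAP2K2). These syndromes affect the heart, the face, the skin and growth.

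The libraries held 23255957 counts in replicate 2 and 26370253 in replicate 1. All 7 markers fixed for the folds and their connective tissue were expressed, meaning 1 TPM or more in both libraries (TPM is a gene's count divided by its length, with all genes of a library adding up to 1000000). Summed over the 7 they reached 583 TPM in replicate 2 and 547 TPM in replicate 1. The 5 muscle markers summed to 870 and 874 TPM, and neither lung epithelial marker reached 1 TPM. Hepatoblast markers summed to 263 TPM in replicate 2 and 97.7 TPM in replicate 1, with 3 of 5 expressed, and urogenital markers to 8.34 and 23.1 TPM, with 1 of 4 expressed. Erythroid markers summed to 4612 and 4970 TPM (4 of 4 expressed), macrophage markers to 228 and 244 TPM (3 of 3 found), endothelial markers to 187 and 160 TPM (4 of 4), heart markers to 94.5 and 70.0 TPM (1 of 2) and neuronal markers to 41.9 and 26.4 TPM (2 of 4, with Mnx1 at 0). In bulk tissue, fewer cells of a type and less RNA per cell cannot be told apart.

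The 8 genes lie on 8 chromosomes. Their promoter windows, 250 bases before to 50 after a transcription start in RefSeq's GRCm38.p6 models, were matched for all 8 by symbol, in 9 windows because Shoc2 has 2 starts. The windows of Ptpn11 and Braf are shown, the genes with the highest and the lowest level on the deposited gene lengths. They were chosen because both are rich in CpG dinucleotides (in capitals) in spite of that difference in level. The Ptpn11 window is chr5:121191348-121191647 and the Braf window chr6:39725414-39725713, both on the minus strand.
Ptpn11: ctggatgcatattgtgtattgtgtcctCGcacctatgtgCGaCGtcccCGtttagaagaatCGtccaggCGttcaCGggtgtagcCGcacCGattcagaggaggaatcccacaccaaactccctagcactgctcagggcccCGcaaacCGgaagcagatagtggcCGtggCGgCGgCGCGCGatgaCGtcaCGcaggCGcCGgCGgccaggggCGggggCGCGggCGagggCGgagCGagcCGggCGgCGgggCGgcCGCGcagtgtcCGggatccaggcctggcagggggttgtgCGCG
Braf: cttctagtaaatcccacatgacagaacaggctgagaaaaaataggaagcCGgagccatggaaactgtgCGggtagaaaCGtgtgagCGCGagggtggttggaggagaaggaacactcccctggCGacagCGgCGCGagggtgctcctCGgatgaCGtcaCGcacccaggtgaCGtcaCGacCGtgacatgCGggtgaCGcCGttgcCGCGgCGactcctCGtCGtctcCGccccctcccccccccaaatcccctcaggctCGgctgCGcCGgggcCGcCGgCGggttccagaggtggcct
The Ptpn11 window held 37 CpGs and was 68.7% G and C, and the Braf window held 30 CpGs at 65.0%. Over all 32851 windows the medians were 7 CpGs and 52.7%, and the 9 windows ranged from 19 CpGs (Nras and the upstream start of Shoc2) to the 37 of Ptpn11. The letters TATAAA were in none of the 9 windows on either strand, against 13.6% of all windows, and GGGCGG, the core of the GC box, was in 7 of the 9, against 35.7%. CCAAT stood in 3 of the 9 (37.4% of all) and CCGGAAG, a core of Ets factor motifs, in 2 of the 9 (8.86% of all), the windows of Ptpn11 and upstream Shoc2. The cAMP response element TGACGTCA, searched for after these sequences were read, was in the windows of Ptpn11 and Braf and in 1.79% of all windows. A match of letters is a description of the window and not evidence of a bound factor.

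The starts of Hras and Shoc2 lie close to those of other genes. In the GENCODE M21 annotation the Hras start lies 152 bases from that of Lrrc56, which is transcribed the other way, and Lrrc56 stood at 5.19 TPM in replicate 2 and 5.17 TPM in replicate 1. Bbip1, which encodes a subunit of the ciliary BBSome complex, starts on the opposite strand 321 bases downstream of the Shoc2 start, and it stood at 37.0 and 38.4 TPM in replicates 2 and 1. Exon bases shared with another gene amounted to 1.74% of Shoc2 and 1.05% of Braf and to 0 for the other 6.

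Related genes can also share reads where their coding sequences are identical. The longest stretch of coding sequence in common is shown for the pair of Mek kinases and for Sos1 and its paralog Sos2, because reads that fall wholly inside it cannot be assigned to one gene.
Map2k1 and Map2k2: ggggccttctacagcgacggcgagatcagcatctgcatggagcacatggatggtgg
Sos1 and Sos2: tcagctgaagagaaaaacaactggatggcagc
Hras and Nras were 76.1% identical over 566 aligned coding bases. Map2k1 and Map2k2 were 78.4% identical, with a shared run of 56 bases, coding bases 391 to 446 of Map2k1 and 403 to 458 of Map2k2, that crosses an exon junction in each gene. Sos1 and Sos2 were 70.6% identical, and their run of 32 bases lies at chr17:80433736-80433767 and chr12:69617093-69617124, both on the minus strand. Braf and Araf shared at most 17 bases in a row and Ptpn11 and Ptpn6 also 17. The sources used here do not give the read length, and the share of reads inside such runs was not measured.

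Every one of the 8 genes was expressed, and each also passed 10 TPM in replicate 2 and in replicate 1. Over all listed genes 44.4% reached 1 TPM in both libraries and 28.4% reached 10 TPM, and over protein-coding genes 63.7% and 46.6%. Their median level was 73.4 TPM, against 27.0 TPM for the 12980 expressed protein-coding genes. On the deposited lengths the levels fell into an upper set of 4 genes near 100 TPM (Ptpn11, Nras, Map2k2 and Map2k1) and a lower set of 4 (Shoc2, Hras, Sos1 and Braf), with a 7.57-fold span between Ptpn11 and Braf. Each gene had between 1010 and 6857 counts in a library. In the text that follows, means are given ± SD with n = 2 libraries.

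**Figure D1:**
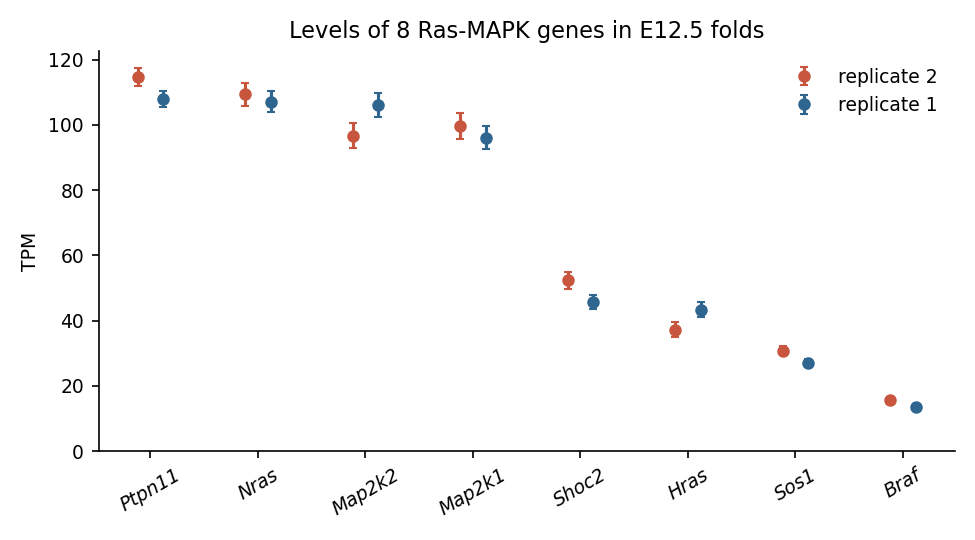
TPM of each of the 8 genes in replicate 2 (red) and replicate 1 (blue), with 95% exact Poisson intervals of the counts, which cover counting error only. Ptpn11, Nras, Map2k2 and Map2k1 lie between 96.0 and 115 TPM, and the other 4 genes between 13.6 and 52.3 TPM.

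Ptpn11, the gene of the phosphatase Shp2, had the highest level on the deposited lengths. It lies at chr5:121130533-121191397 on the minus strand (GRCm38, as for the positions that follow). It stood at 115 TPM in replicate 2 and 108 TPM in replicate 1, from 6240 and 6857 counts, and averaged 111 ± 4.74 TPM. Its level exceeded that of 90.3% of expressed genes. Ptpn6, which encodes the related phosphatase Shp1 known mainly from blood cells, averaged 13.7 ± 0.466 TPM, and Ptpn11 was 8.19-fold higher than Ptpn6 in replicate 2 and 8.09-fold higher in replicate 1 (21.7-fold for the mean when only coding length is used).

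Sos1, the exchange factor gene at chr17:80393751-80480453 on the minus strand, stood at 30.8 TPM in replicate 2 and 27.1 TPM in replicate 1, the lowest but one of the 8 genes on the deposited lengths. Its paralog Sos2 was lower in both libraries, at 18.1 and 16.6 TPM, and the ratio of Sos1 to Sos2 was 1.70 in replicate 2 and 1.64 in replicate 1. On the principal transcripts the mean ratio was 1.16. Of the 8 Ras exchange factors listed, 5 were expressed, with Sos1 the highest. Rasgrp3, an exchange factor that responds to diacylglycerol, followed at 18.1 ± 2.41 TPM, while Rasgrp1 (0.305 ± 0.0148 TPM) and Rasgrf2 (0.113 ± 0.0836 TPM) were lowest.

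Of the GTPase genes, Nras (chr3:103058285-103067914, plus strand) was higher than Hras (chr7:141189105-141194005, minus strand). Nras stood at 109 TPM in replicate 2 and 107 TPM in replicate 1 and Hras at 37.2 and 43.3 TPM, so their values did not overlap. The log2 ratio of Hras to Nras was -1.55 in replicate 2 (95% counting interval -1.66 to -1.45) and -1.31 in replicate 1 (-1.40 to -1.22), and these intervals did not overlap.

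Shoc2, at chr19:53944306-54033133 on the plus strand, stood at 52.3 TPM in replicate 2 and 45.6 TPM in replicate 1, the highest of the lower set on the deposited lengths. Hras was above Shoc2 in both libraries on the shortest principal transcript and on the coding length, and the values of these genes overlapped on the longest principal transcript. The Shoc2 protein forms a phosphatase complex with the GTPase of Mras and a catalytic subunit of protein phosphatase 1. Mras averaged 19.8 ± 1.06 TPM, below Shoc2 in both libraries. Of the catalytic subunit genes, Ppp1ca averaged 755 ± 21.5 TPM and Ppp1cb 130 ± 2.08 TPM, and 16.5% and 17.5% of their exon bases are shared with other genes. Ppp1cc was lowest of the 5 genes of the complex at 13.8 ± 0.512 TPM.

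Braf, at chr6:39603237-39725463 on the minus strand, had the lowest level of the 8 genes on the deposited lengths. It stood at 15.8 TPM in replicate 2 and 13.6 TPM in replicate 1, above 42.5% of expressed genes. Araf, a related Raf kinase gene, averaged 53.3 ± 1.48 TPM. Braf was 3.45-fold lower than Araf in replicate 2 and 3.84-fold lower in replicate 1.

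On the deposited lengths the Mek genes differed from each other by less than the spread between the libraries. Map2k1 (chr9:64185770-64253631, minus strand) had 99.7 TPM in replicate 2 and 96.0 TPM in replicate 1, and Map2k2 (chr10:81105915-81133975, plus strand) had 96.7 and 106 TPM. On these lengths the order of the pair changed between the libraries: the log2 ratio of Map2k1 to Map2k2 was 0.044 in replicate 2 (95% counting interval -0.036 to 0.12) and -0.14 in replicate 1 (-0.22 to -0.070). On the principal transcripts and on the coding length Map2k2 was above Map2k1 in both libraries, with mean log2 ratios of Map2k1 to Map2k2 of -0.20 and -0.15.

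Among neighbours in the order of mean levels on the deposited lengths, Ptpn11 and Nras overlapped over the libraries, as did Map2k2 and Map2k1. In each of the other 5 neighbouring pairs the values did not overlap over the libraries. The widest steps lay between Map2k1 and Shoc2 (a ratio of means of 2.00) and between Sos1 and Braf (1.97). In replicate 1 the counting intervals of Nras (104 to 110 TPM) and Map2k2 (103 to 110 TPM) overlapped. Those of Shoc2 (43.4 to 47.9 TPM) and Hras (41.0 to 45.6 TPM) overlapped there too. In replicate 2 the intervals of these pairs were separate. On the longest principal transcript Map2k2 was above Nras, at 154 against 107 TPM rescaled over protein-coding genes. Map2k2 was below Nras on the shortest and on the coding length. With 2 values per gene an exact permutation test cannot give a p below 0.333, so no test of the steps between neighbours was made. A likeness of pattern between genes cannot be measured over 2 libraries of 1 group, so no genes are named for one.

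**Figure D2:**
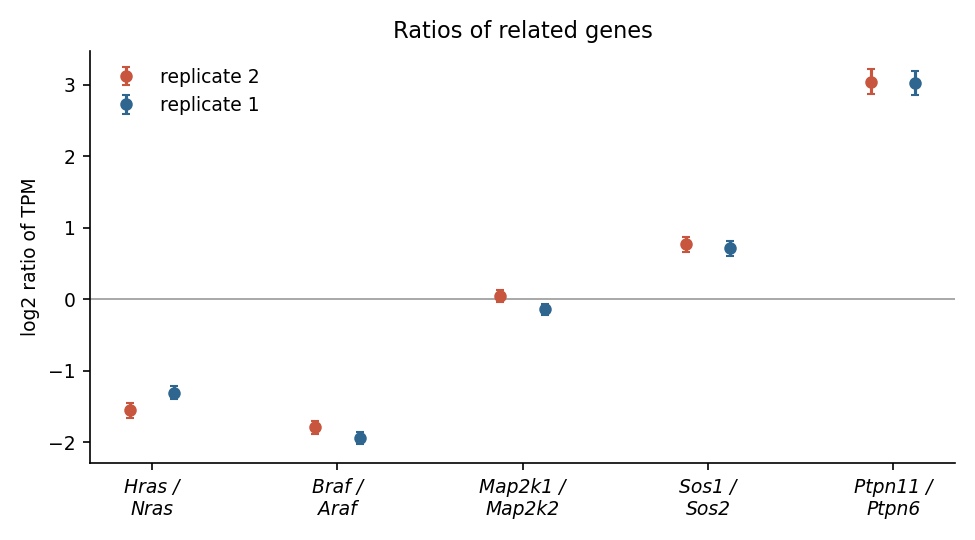
Log2 ratio of TPM on the deposited lengths between related genes, first over second, in replicate 2 (red) and replicate 1 (blue), with 95% counting intervals. Hras lies below Nras (-1.55 and -1.31) and Braf below Araf (-1.79 and -1.94), Map2k1 and Map2k2 lie near 0, and Ptpn11 stands above Ptpn6 (3.03 and 3.02).

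The order of the genes depended on the gene length used. The deposited lengths are 13862 bases for Braf, 4514 for Nras and 3733 for Hras. The principal transcripts of the same genes in GENCODE M21 are 9728 bases long for Braf, 831 to 4470 for Nras and 1199 to 2828 for Hras. Rescaled over protein-coding genes, Hras averaged 49.9 ± 5.38 TPM on the deposited length, 52.2 TPM on the longest and 111 TPM on the shortest principal transcript. Nras moved more, at 134 TPM on the deposited length, 107 TPM on the longest and 519 TPM on the shortest principal transcript. Braf was lowest of the 8 on all of these lengths, at 18.2, 20.6 and 18.5 TPM, but passed Sos1 when the coding length alone was used (36.9 against 28.5 TPM). On the coding length the upper and lower sets given above overlapped. Hras and Map2k1 there stood at 107 and 125 TPM in replicate 2, and at 125 and 121 TPM in replicate 1. Nras exceeded Hras on each of the 4 lengths, and Araf exceeded Braf on each of them. The ratio of Hras to Nras was 0.371 on the deposited lengths, 0.485 on the longest and 0.213 on the shortest principal transcripts, and 0.307 on the coding length. That of Braf to Araf was 0.275 on the deposited lengths, 0.141 on the principal transcripts and 0.438 on the coding length. Which transcripts the folds used was not measured in counts per gene.

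**Figure D3:**
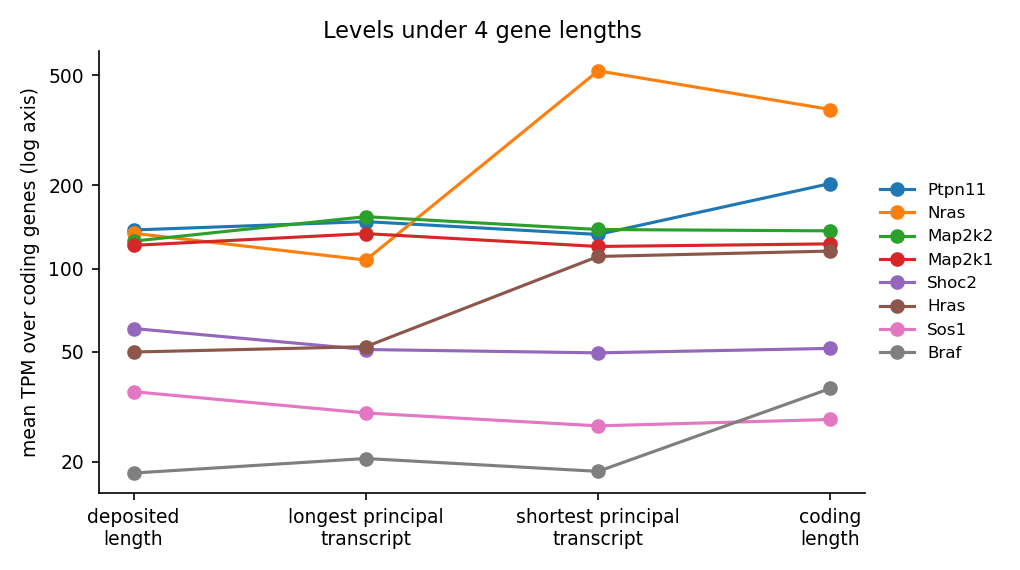
Mean TPM of the 2 libraries, rescaled over protein-coding genes, for each of the 8 genes on 4 choices of gene length, with a log vertical axis. Nras rises to 519 TPM and Hras to 111 TPM on the shortest principal transcript, while Map2k1 stays between 120 and 134 TPM on the 4 lengths.

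Between the libraries 5 of the 8 genes differed by more than counting error, none by as much as 2-fold. Hras and Map2k2 were lower in replicate 2, and Shoc2, Sos1 and Braf were higher. The counts of 19433 genes were compared by a two-sided exact binomial test with Benjamini-Hochberg adjustment, and 17.1% of those genes had an adjusted p under 0.05 (29.2% where the libraries together had 1000 counts or more). In replicate 2, 9.62% of the genes were higher and 7.52% lower, and 1.25% passed a 2-fold difference. The test compares these libraries, with counting error as the only noise, and not animals or conditions.

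For Hras there were 1010 counts in replicate 2, against 1371 in replicate 1, giving a log2 ratio of -0.25 (95% counting interval -0.36 to -0.13, exact binomial adjusted p = 0.000556). Map2k2 had 2615 and 3350 counts, a log2 ratio of -0.16 (-0.24 to -0.088, exact binomial adjusted p = 0.000257). These are the GTPase and the Mek gene whose paralogs, Nras and Map2k1, had log2 ratios of 0.0011 and 0.026 with exact binomial adjusted p = 1 and 0.768.

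Braf had 1589 and 1602 counts in replicates 2 and 1, a log2 ratio of 0.18 after scaling to library size (exact binomial adjusted p = 0.00357). Shoc2 had a log2 ratio of 0.17 (adjusted p = 0.00824) and Sos1 of 0.16 (adjusted p = 0.00546) in the same exact binomial test. Ptpn11 had a log2 ratio of 0.059, which did not pass (exact binomial adjusted p = 0.0943). The median log2 ratio of the 8 genes was 0.042, against -0.0030 for all genes tested.

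Ratios moved with transcript composition over all genes. Across 14609 protein-coding genes, which are not independent and share both libraries, the median log2 ratio was 0.062 in the lowest of 10 bins of G and C content and -0.051 in the highest, and it was -0.081 in the shortest of 5 bins of deposited length and 0.083 in the longest. Over these genes the Spearman correlation of the ratio with G and C content was -0.17. Map2k2 and Hras have the highest G and C content of the 8 transcripts (60.4% and 55.2%), and Shoc2 and Sos1 the lowest (40.7% and 41.0%). The others lay between, with Nras and Braf both at 42.6% and Map2k1 and Ptpn11 at 51.2% and 51.5%. At that like content the log2 ratio was 0.0011 for Nras and 0.18 for Braf. With the median of genes of like G and C content and length subtracted, the log2 ratio was -0.22 for Hras, -0.12 for Map2k2 and 0.14 for Shoc2, whereas it was 0.073 for Braf and 0.036 for Sos1. The part of composition, or of the hepatoblast and urogenital marker sums given above, in these differences was not tested. A ranking by fold difference in TPM, not by the scaled log2 ratios above, took in 8125 expressed protein-coding genes with 1000 counts or more. In that ranking 11.2% differed more between the libraries than Hras did and 81.3% more than Nras.

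**Figure D4:**
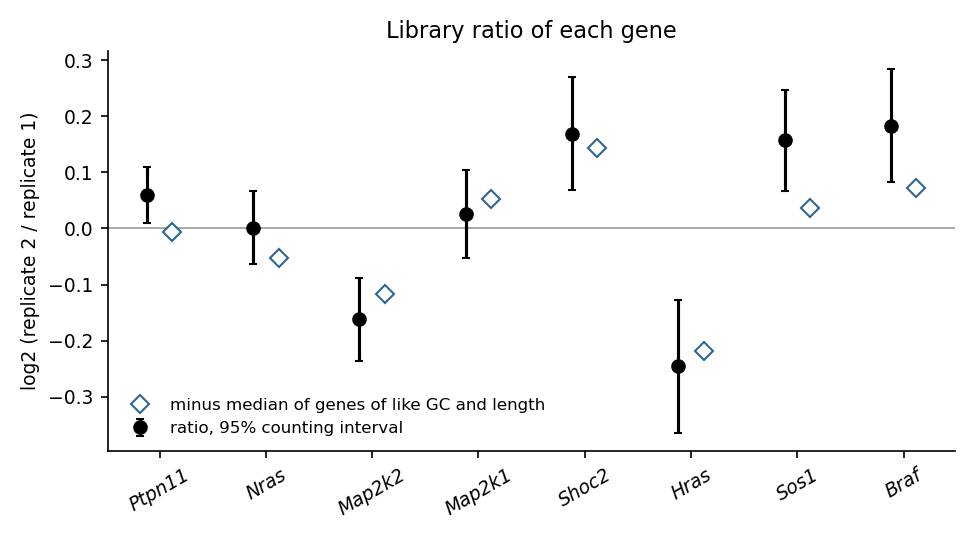
Log2 ratio of replicate 2 to replicate 1 for each gene (filled points, with 95% counting intervals), and the same ratio minus the median of protein-coding genes of like G and C content and length (open diamonds). Hras and Map2k2 lie below 0 on both, and Shoc2 lies above 0 on both.

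The rest of the pathway was broadly present. Of 83 further genes listed by role, 79 were expressed and 67 passed 10 TPM in each library, with a median of 37.9 TPM, below the 73.4 TPM of the 8 genes. All 16 other RASopathy genes were expressed, from Ppp1cb down to Sos2 (17.3 ± 1.10 TPM) and the GTPase activating protein gene Rasa2 (13.8 ± 1.72 TPM). In the exact binomial test between the libraries, 5 of the 16 were called higher in replicate 2 and none lower. Over all genes tested 9.62% were called higher and 7.52% lower. Where the libraries together had 1000 counts or more, as for most of the 16, 29.2% were called in either direction. These shares also stand beside the calls of the lists that follow. The 5 genes recur in those lists, so calls do not add up over lists. All 12 receptor adaptor genes were expressed, led after Ptpn11 by Crkl at 84.1 ± 6.53 TPM, with Irs2 (16.9 ± 1.78 TPM) and Frs3 (5.75 ± 0.291 TPM) lowest. Of these 12, 6 were called higher in replicate 2 and none lower. All 10 GTPase activating protein genes, whose products switch Ras off, were expressed, among them Dab2ip (59.9 ± 2.24 TPM), with Rasal3 (1.40 ± 0.0799 TPM) and Rasal1 (1.12 ± 0.0710 TPM) lowest. In that list 4 of 10 were called higher in replicate 2 and none lower. Of the 8 exchange factors 2 were called higher, Sos1 and Rasgrp3, and none lower. Of the low genes named here, Frs3 and Rasal3 share 18.5% and 13.0% of their exon bases with other genes.

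Of 13 kinase and scaffold genes 12 were expressed, among them Pea15a, which encodes an Erk-binding protein (115 ± 3.81 TPM), and Ksr2, a Raf scaffold gene, was the one below 1 TPM at 0.366 ± 0.0267 TPM. All 8 genes for the lipid modification and transport of Ras were expressed, from Fnta, the farnesyltransferase alpha subunit gene (118 ± 6.92 TPM), to Lypla1 (19.7 ± 0.690 TPM). All 13 feedback inhibitor genes were expressed, led by Dusp6, an Erk phosphatase gene (101 ± 6.57 TPM), and Spry2 (86.3 ± 5.33 TPM), and Spry3 was lowest at 3.35 ± 0.357 TPM. Of the 16 genes listed as Erk targets all were expressed, led by Ccnd1 (142 ± 4.92 TPM) and Elk3 (84.5 ± 4.78 TPM), while Fos (2.70 ± 0.981 TPM) and Etv1 (2.08 ± 0.303 TPM) were lowest. Ccnd1 shares 23.4% of its exon bases with other genes. The calls in the remaining lists include some of the 8 genes. Among the kinases and scaffolds 2 were called higher in replicate 2, Braf among them, and 1 lower, Map2k2. In the Shoc2 complex Shoc2 was the 1 higher call, beside 1 lower. Among the feedback inhibitors 3 were called higher and 1 lower. The Ras family and the lipid processing genes each had 1 lower call, in the Ras family Hras, and no higher one. The Erk targets had 3 higher and no lower. These are transcript levels, and the activity of the pathway was not measured.

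**Figure D5:**
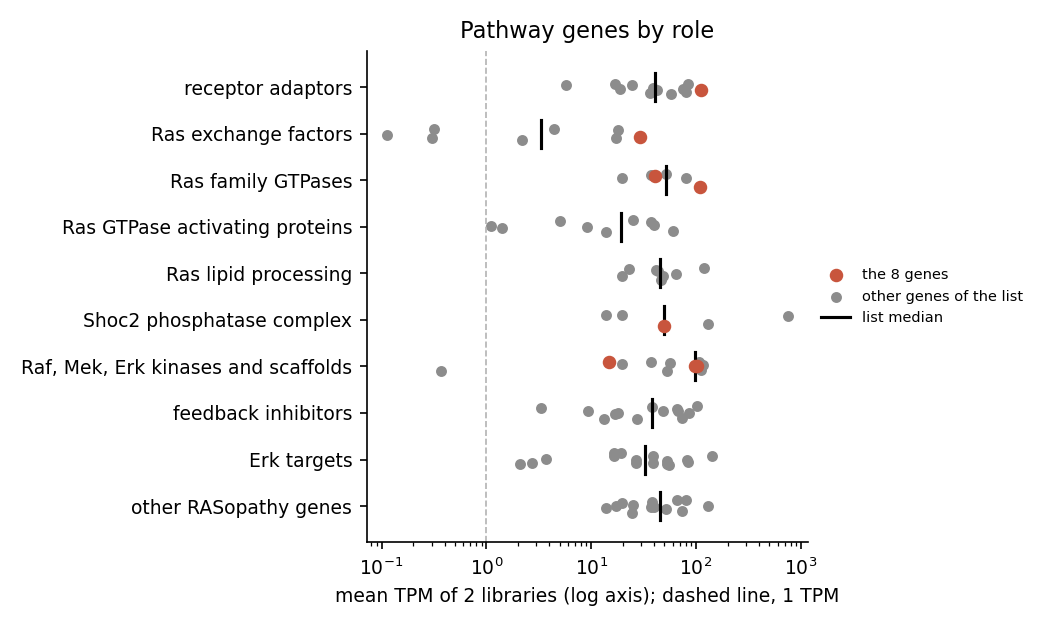
Mean TPM of the 2 libraries for genes of 10 role lists, on a log axis, with the 8 genes in red, the others in grey, list medians as black bars and 1 TPM as a dashed line. The exchange factors have the lowest median (3.29 TPM), and the other RASopathy genes have one of 45.7 TPM.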

How the data were processed

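RNA from 2 libraries of wild type folds was read from the deposited tables. STAR 2.4.0a, SAMtools 1.3, featureCounts and build mm9 are named in the submitters' processing notes. Of 35582 symbols shared with GENCODE M21 (GRCm38), 56.3% had identical deposited chromosome, start and end and 82.2% shared at least 1 end, so GRCm38 positions are given. Whether counting used strand is not stated in those sources. The deposited counts are raw reads per gene, and the deposited TPM values, computed by the authors, equalled count over deposited length, rescaled, to within 4.73e-11.

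Library sizes were scaled by TMM (edgeR 4.0.16). The log2 ratio used a pseudocount of 0.5, and an exact binomial test (SciPy 1.17.1) was applied where the libraries together had 10 counts or more, with Benjamini-Hochberg adjustment and a threshold of 0.05. The edgeR quasi-likelihood test needs replicates on each side and was not used. Alternatives used size factors of DESeq2 1.42.0, other filters, pseudocounts and lengths. Intervals cover counting error only, and no molecular identifiers are named in the labels, so reads may repeat a molecule.

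All 8 genes are reported. Others could be named only from role lists written from general knowledge, if among the 2 highest or 2 lowest of a list or a closest relative, with neighbours of the 8 genes and the CREB-type motif added after values or sequences were seen. A few genes of the lists and 1 shared sequence are not reported here. The genes and lists were chosen with earlier results of these data known.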

Additional observations from a re-analysis of the deposited data

How the results depend on the processing

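All 8 genes stayed expressed at 10 TPM and at 1 CPM. They also passed in either library alone, which the definition of expressed, 1 TPM or more in both libraries, already requires. Between the libraries 5 of 8 differed under DESeq2 size factors, library totals and no filter on low counts. Pseudocounts of 1 and 5 enter only the log2 ratio and not the binomial test, so they could not change these calls. The median level of the 8 genes, 73.4 TPM, lay between 70.8 and 74.5 TPM with either library left out, and was 81.9 TPM over features of at least 200 bp and 91.0 TPM over protein-coding genes. On that protein-coding scale, with lengths added after the data were seen, it was 79.8 TPM for the longest principal transcript, 115 TPM for the shortest and 119 TPM for the coding length. The median share of expressed genes below the 8 genes, 81.1%, lay between 80.9% and 82.7% with either library left out, and was 77.6% among protein-coding genes. The near-zero log2 ratio of Nras turned to -0.0047 with DESeq2 size factors, -0.013 with library totals and -0.053 with the median of like genes subtracted, which also turned that of Ptpn11 to -0.0070. With that median subtracted, Braf fell from 0.18 to 0.073 and Sos1 from 0.16 to 0.036. Hras, Map2k2 and Shoc2 then stood at -0.22, -0.12 and 0.14. The binomial test was not repeated on these values. The log2 ratio of Map2k1 to Map2k2 lay between -0.14 and 0.044 with either library left out and was -0.20 on both principal transcript lengths. At 1010 counts or more, counting error is small beside the choice of length. No paired analysis was possible because the series has a single group.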
